A study of Mus musculus with 19 samples.

Results

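The genes examined were 10 of the 54532 in the count table, namely Fos, Fosb, Fosl1, Fosl2, Jun, Junb, Jund, Egr1, Atf3 and Ier3. They were taken by gene symbol as immediate early AP-1 and stress factors, and each symbol matched 1 row of the table. The tissue was the whole obstructed kidney after unilateral ureteral obstruction (UUO), in which the left ureter is tied off and cut so that urine is held back in that kidney. Bulk RNA-seq had been run on 19 kidneys, 1 per mouse, and the 4 groups crossed genotype with treatment. The purpose of the design was to compare wild-type (WT) with CD5L knockout (CD5L KO) mice, and recombinant CD5L protein (rCD5L) with its vehicle PBS. CD5L, also called AIM, is a circulating protein secreted by macrophages.

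There were 5 kidneys for WT with PBS, for WT with rCD5L and for CD5L KO with rCD5L, and 4 for CD5L KO with PBS. The mice shared a C57BL/6J background, were male and 8 to 9 weeks old, and were operated on in the same way, so that no kidney without obstruction was compared here. Injections were intraperitoneal and daily, with 0.5 mg rCD5L per mouse or the same volume of PBS, and kidneys were taken on day 12 after perfusion with heparin. No Cre driver or cell type is named for the knockout, so a difference between genotypes is not tied to 1 cell type. Cd5l itself had 0 counts in each of the 9 CD5L KO kidneys, which allows up to 3 counts, and 3 to 15 counts in WT kidneys.

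The 19 libraries held 17917491 to 23847090 counts, and the 10 genes together took 0.0445% to 0.122% of them. In CD5L KO mice given rCD5L, 2 libraries stood apart from the rest. Kidneys 3 and 4 had TMM scaling factors of 0.874 and 0.682, against 0.968 to 1.07 in the other 17. Kidney 4 also had the highest summed level of 10 proximal tubule markers, 16960 CPM (counts scaled to the TMM-adjusted depth of each library) against 1389 to 2882 in the other 18 kidneys. Its 8 injured tubule markers summed to 3737 CPM, while those of the other kidneys of its group summed to 7106 to 8915. Each comparison that used these kidneys was therefore run with and without them, a choice made after seeing the data.

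AP-1 is a dimer of basic leucine zipper proteins that binds short palindromic DNA sites. Proteins of the Fos family must pair with a partner, most often of the Jun family, whereas Jun proteins can also pair with each other, and the make-up of the dimer shapes which genes are switched on. Fos, Fosb, Jun, Junb, Egr1, Atf3 and Ier3 belong to the immediate early genes, which are transcribed within minutes of a growth factor, stretch or stress signal through MAP kinases and need no new protein synthesis. In kidney, they are induced by ischemia, oxidants and mechanical strain of the tubule.

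In GRCm38, the Fos family genes are Fos (chr12:85473890-85477273), Fosb (chr7:19302696-19310051), Fosl1 (chr19:5447703-5455945) and Fosl2 (chr5:32135801-32157842). Of the Jun family, Jun (chr4:95049034-95052222) and Jund (chr8:70698949-70700616) each have 1 exon, while Junb lies at chr8:84974484-84978718. Atf3 lies at chr1:191170296-191218039 and Ier3 at chr17:35821684-35822923.

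Promoter windows from RefSeq (GRCm38.p6) were found for 8 of the 10 genes, Egr1 and Fosl1 being the others. The 110 bases before the RefSeq start site are shown for Fos and Fosb, which had the widest spread between kidneys. They are also shown for Jun and Junb, which passed a test of varying together by Pearson's r but not by rank correlation. Capitals mark matches on either strand to TGACGT (the core of a CRE site), TGACATCA (an AP-1-like site), TATAAA and CCAAT. The AP-1 site TGANTCA and the CArG box (the serum response factor site) were also searched for and had no match in these windows of 110 bases. The search ended 250 bases before the start site, so sites further upstream were not looked for.
Fos, chr12:85473780-85473889, plus strand: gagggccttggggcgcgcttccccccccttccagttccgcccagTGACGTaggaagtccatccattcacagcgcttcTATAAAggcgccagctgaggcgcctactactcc
Fosb, chr7:19310046-19310155, minus strand: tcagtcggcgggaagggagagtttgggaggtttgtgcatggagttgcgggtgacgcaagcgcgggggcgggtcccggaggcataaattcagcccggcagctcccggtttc
Jun, chr4:95052223-95052332, minus strand: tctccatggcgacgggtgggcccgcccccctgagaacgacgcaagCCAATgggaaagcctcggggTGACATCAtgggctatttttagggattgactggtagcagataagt
Junb, chr8:84978749-84978858, minus strand: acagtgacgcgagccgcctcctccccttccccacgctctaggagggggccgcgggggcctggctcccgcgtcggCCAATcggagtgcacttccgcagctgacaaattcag

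In the Fos window, TGACGT began 66 bases and TATAAA 33 bases before the start site. TGACATCA began 45 bases before the start site of Jun, and CCAAT began 65 bases before that of Jun and 36 bases before that of Junb. Of 32851 mouse promoter windows of 250 bases, 6.47% held TGACGT on either strand, 2.93% TGACATCA, 12.4% TATAAA and 33.8% CCAAT. The AP-1 site TGANTCA was held by 6.75% and the CArG box by 1.47%. TGACGTCA, in which TGACGT is contained, was held by 1.55%. A match of letters is a description of the sequence, not evidence of binding.

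Levels can be compared between genes per length, as FPKM, a count scaled by gene length and library size that the authors deposited. Over the 19 kidneys, Junb had the highest mean FPKM level, 81.4 ± 15.4 (SD, n = 19, all groups together). Jun followed at 53.3 ± 6.78 FPKM, Jund at 51.9 ± 15.2 and Ier3 at 44.0 ± 4.07. Egr1 had a mean level of 23.2 ± 6.95 FPKM. Fos (12.4 ± 7.74 FPKM), Atf3 (10.5 ± 2.16 FPKM) and Fosl2 (10.3 ± 1.74 FPKM) lay within 1 SD of each other, as did Jun, Jund and Ier3 when the wider SD of Jund was taken. Fosl1, at 2.57 ± 1.21 FPKM, and Fosb, at 0.585 ± 0.321 FPKM, were the lowest. The 3 Jun family members were thus each listed above each of the 4 Fos family members in mean level.

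The depth behind these values differed. Fosb had 49 to 275 counts per kidney and Fosl1 62 to 315, so that at the lowest count the counting error alone was 14.3% and 12.7%. Fos had 203 to 2184 counts, a counting error of 7.02% at the lowest. For the other 7 genes the lowest count gave an error of 2.09% to 5.18%. Counting error leaves out the spread between mice. The strand setting of the counting is not given in the sources used here, so reads from genes that overlap on opposite strands cannot be told apart. This touches Fosl1 (overlapped by Ccdc85b), Jun (by the antisense gene Junos) and Junb (by Prdx2). Prdx2 was counted at 246 ± 13.2 to 305 ± 37.7 CPM in the 4 groups and Ccdc85b at 44.6 ± 1.99 to 51.0 ± 18.2 CPM, above Fosl1 itself. Junos was counted at 2.03 ± 0.331 to 2.65 ± 0.561 CPM, and Jun itself at 199.9 ± 9.76 to 219 ± 37.7 CPM. Jund is overlapped by the antisense gene Gm11175, which had 0 counts in each kidney.

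From here on, levels in single kidneys are CPM after TMM scaling over the 19 kidneys, and are compared within a gene. Differences are log2 fold changes with their standard errors (SE) from edgeR's quasi-likelihood test, fitted on all genes that passed its filter on low counts. All 10 genes passed that filter in every comparison. A gene was called when its Benjamini-Hochberg adjusted p-value fell below 0.05, the adjustment running over every gene tested. The comparisons share groups, so their values are given side by side and were not correlated with each other.

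**Figure D1:**
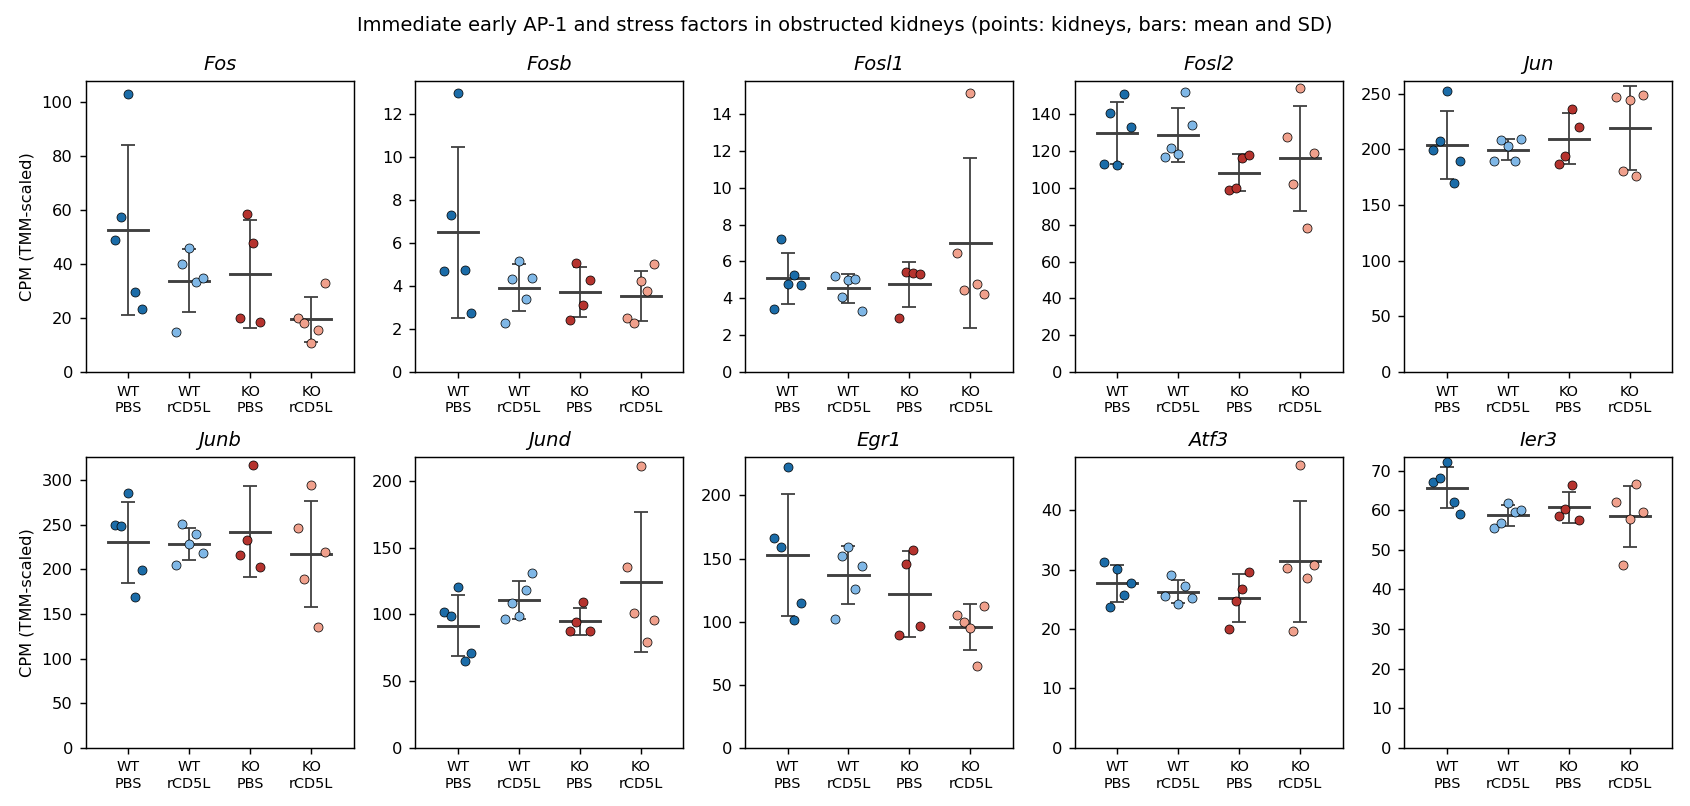
CPM (y axis, TMM-scaled, from 0) of the 10 genes in the 4 groups (x axis), with 1 point per kidney and bars for the mean and SD. The groups overlap for every gene, and Fos ranges from 10.8 to 103 CPM.

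The first comparison asked what loss of CD5L changed without treatment, CD5L KO against WT kidneys given PBS. No member passed the threshold in edgeR, 0 of 10, where 10.5% of all genes tested did (1850 of 17579). Fosl2 was the 1 member with an unadjusted p-value under 0.05, against 26.6% of all genes tested. None of the 10 had groups without overlap, against 14.1% of all genes. The median log2 fold change of the members was -0.13, and that of all genes -0.005. DESeq2, run as an alternative, called 1 of the 10, Fosl2, and 2571 genes in all. The count over all genes was 12 with all 19 kidneys in 1 fit and 1015 to 2062 with single kidneys left out.

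Fos, the founding member of its family, was at 23.4, 29.6, 49.1, 57.6 and 103 CPM in WT kidneys given PBS and at 18.7, 19.9, 47.9 and 58.5 CPM in CD5L KO kidneys given PBS. Both groups held high and low kidneys, and 2 CD5L KO kidneys lay below all WT kidneys. The log2 fold change was -0.54 (SE 0.429, 95% interval -1.48 to 0.39, adjusted p = 0.46 in edgeR), and leaving out single kidneys moved it between -0.88 and -0.15. With the replicate number as a block, Fos was called (adjusted p = 0.0261 in edgeR).

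Fosb, whose short splice form lacks the transactivation domain, was at 2.76, 4.69, 4.73, 7.33 and 13.01 CPM in WT kidneys and at 2.44, 3.14, 4.29 and 5.06 CPM in CD5L KO kidneys. The highest WT kidney, replicate 3, was also the highest for Fos. For Fosb, the log2 fold change was -0.81 (SE 0.384, 95% interval -1.64 to 0.03, adjusted p = 0.204 in edgeR). It was -0.40 without WT replicate 3 and -0.9994 without WT replicate 5, the ends of its range with single kidneys left out.

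Fosl2, a Fos family member without the transactivation domain of Fos that is linked to collagen production and fibrosis, was at 113, 113, 133, 141 and 151 CPM in WT kidneys given PBS. Its levels in CD5L KO kidneys given PBS were 99.0, 100.04, 116 and 118 CPM. Here 2 CD5L KO kidneys lay below all WT kidneys, and the other 2 lay among the lower WT kidneys. With a log2 fold change of -0.27 (SE 0.0955, 95% interval -0.48 to -0.06), Fosl2 had an adjusted p-value of 0.0906 in edgeR. The call depended on 1 library and on the tool: the adjusted p-value was 0.0414 without WT replicate 3 (log2 fold change -0.32) and 0.0479 in DESeq2. With all 19 kidneys in 1 fit it was 0.551, the highest of the alternatives. Fosl1, which like Fosl2 lacks that domain, was at 3.41 to 7.24 CPM in WT kidneys and at 2.93 to 5.41 CPM in CD5L KO kidneys, with a log2 fold change of -0.10 (SE 0.232).

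The Jun family showed smaller differences, with intervals that bound them. Jun was at 169.95 to 252 CPM in WT and 187 to 236 CPM in CD5L KO kidneys, with a log2 fold change of 0.03 (95% interval -0.20 to 0.26). Junb, often an antagonist of Jun, was at 169 to 285 and 203 to 317 CPM, and the interval of its log2 fold change ran from -0.27 to 0.40. Jund, the member that is expressed in resting cells, was at 65.3 to 120.4 and 87.8 to 109 CPM, with an interval from -0.29 to 0.38. The sign of these 3 changes turned when single kidneys were left out.

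Egr1, a zinc finger factor outside AP-1 that shares the serum response element with Fos, was at 101, 115, 159, 166 and 223 CPM in WT kidneys and at 89.1, 96.6, 146 and 156 CPM in CD5L KO kidneys. Again 2 CD5L KO kidneys were below all WT kidneys and 2 were among them. These gave a log2 fold change of -0.33 (SE 0.225, adjusted p = 0.376 in edgeR). Atf3, a stress-induced factor that pairs with Jun proteins, was at 23.6 to 31.3 CPM in WT and 19.9 to 29.5 CPM in CD5L KO kidneys, with a log2 fold change of -0.14 (SE 0.114). Ier3, which is not a transcription factor and modulates survival and ERK signaling, was at 59.0 to 72.2 CPM in WT and 57.6 to 66.3 CPM in CD5L KO kidneys. Its log2 fold change was -0.12 (SE 0.0676, adjusted p = 0.271 in edgeR), and with an offset for the trend of fold changes on gene length it was -0.26 and called (adjusted p = 0.0257).

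**Figure D2:**
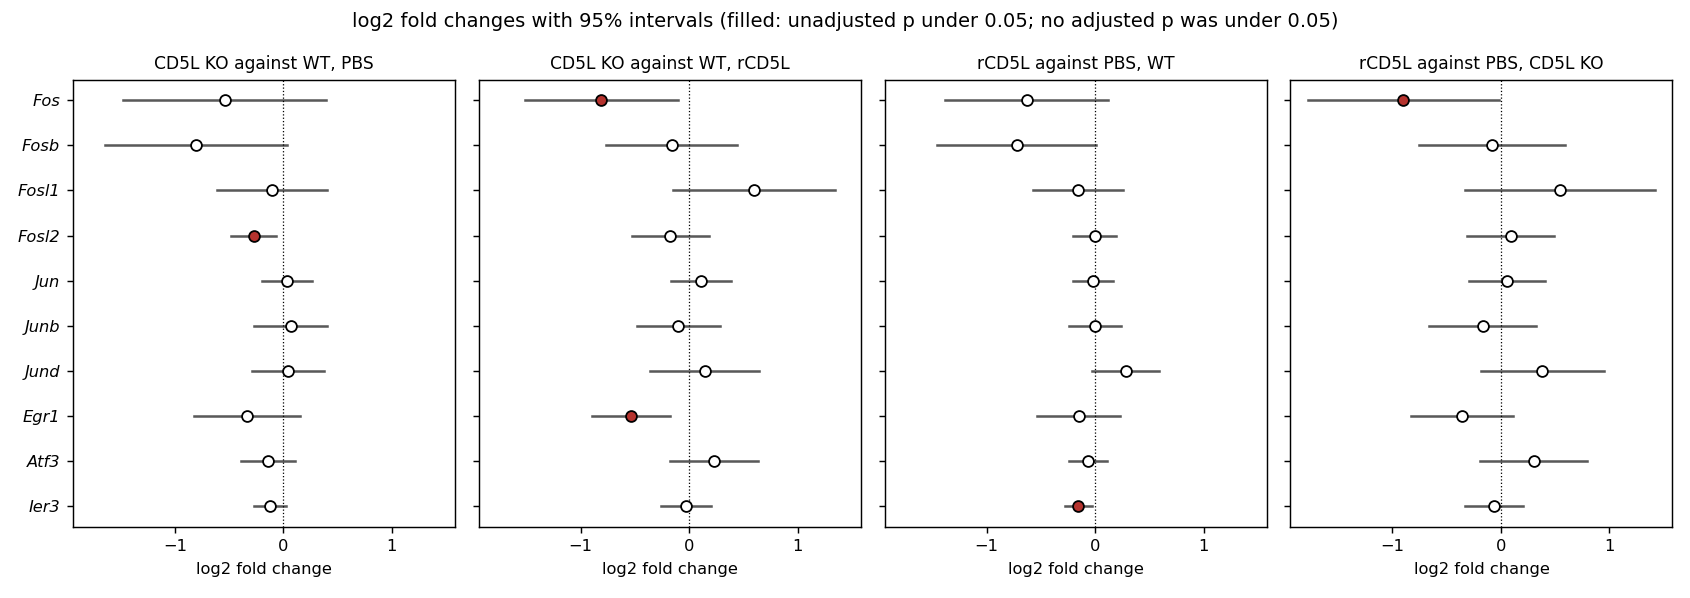
log2 fold changes (x axis, points) with 95% intervals (lines) of the 10 genes (y axis) in 4 comparisons, with filled points for an unadjusted p-value under 0.05. There are 5 filled points, for Fosl2, Fos, Egr1, Ier3 and again Fos, and no gene passed the threshold after adjustment.

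The genes around the 10 factors were looked at in the same comparison. Of 39 other immediate early genes tested, 8 were called, each lower in CD5L KO kidneys, and 0 were called higher. The list's median log2 fold change was -0.08, against -0.005 over all genes tested, of which 949 of 17579 were called lower. The 3 largest falls were those of Nr4a3, Nr4a1 and Ctgf. Nr4a3, an orphan nuclear receptor, was at 4.16, 6.54, 6.87, 8.27 and 11.6 CPM in WT kidneys and at 2.38, 3.24, 3.34 and 4.76 CPM in CD5L KO kidneys given PBS. In 1 CD5L KO kidney the level reached into the WT range, and the log2 fold change was -1.14 (SE 0.277, adjusted p = 0.0232 in edgeR). Nr4a1, its close relative, was at 29.3 to 68.3 CPM in WT and 20.9 to 33.4 CPM in CD5L KO kidneys, which gave a log2 fold change of -0.75 (adjusted p = 0.0445 in edgeR). Ctgf, a matrix protein downstream of TGF-beta and YAP, was at 431 to 564 CPM in WT and 221 to 373 CPM in CD5L KO kidneys, without overlap. Its log2 fold change was -0.68 (adjusted p = 0.0104 in edgeR).

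The count of 8 rested on the fit and on single libraries. It was 0 with all 19 kidneys in 1 fit, 5 with a gene length offset and 2 to 7 with single kidneys left out, the lowest without CD5L KO replicate 1. Calls over all genes fell as well, so the drop was not particular to this list. They went from 1850 to 12 with all 19 kidneys in 1 fit, 1305 with the offset and 1038 without CD5L KO replicate 1. Without CD5L KO replicate 1, 3 or 4, or without WT replicate 1, 2, 3 or 4, the adjusted p-value of Nr4a1 was above 0.05 in edgeR, between 0.0515 and 0.12. Nr4a1 also lost its call with the gene length offset and on FPKM with limma at both pseudocounts. Nr4a3 likewise lost its call without CD5L KO replicate 1, 2 or 3 or WT replicate 4 (adjusted p = 0.0559 to 0.0673 in edgeR), and on log2(FPKM + 1) with limma (0.0534). Ctgf was called with each of the 9 kidneys left out, and lost its call with all 19 kidneys in 1 fit (adjusted p = 0.183).

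Of 15 MAP kinase phosphatases and feedback inhibitors, which shut off the signal that induces immediate early genes, 2 were called lower, Spry4 (-0.39) and Dusp6 (-0.35, log2 fold changes), and 0 higher. Dusp6, which removes phosphate from ERK, was at 78.5 to 94.9 CPM in WT and 61.4 to 72.9 CPM in CD5L KO kidneys. Of 12 other AP-1 dimer partners, Mafg (-0.27) and Atf7 (-0.21) were called, both lower. Of 28 upstream kinases and ternary complex factors, the stress kinase gene Map3k5 (-0.28) and the actin-regulated coactivator gene Mkl2 (-0.24) were called, both lower.

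Most of these smaller calls did not hold with single kidneys left out. The 2 calls of the phosphatases and inhibitors are 13.3% of that list, those of the dimer partners 16.7% and those of the kinases and ternary complex factors 7.14%, against 10.5% of all genes called in either direction. Of the 9 fits that each left out 1 kidney, Spry4 was not called in 5 (adjusted p = 0.0705 to 0.103 in edgeR, without CD5L KO replicate 1, 2 or 4 or WT replicate 2 or 4). Mafg was not called in 8, which leaves the fit without WT replicate 3. Atf7 and Mkl2 were each not called in 7, Atf7 being called without WT replicate 3 or CD5L KO replicate 4 and Mkl2 without WT replicate 3 or CD5L KO replicate 2. Dusp6 and Map3k5 were called in all 9. The count of kinases and ternary complex factors called was 1 to 3, the highest without WT replicate 3. With all 19 kidneys in 1 fit, 0 genes of these 3 lists were called, where 12 of 18454 genes were. In this comparison longer genes tended to lower fold changes, with a rank correlation (rho) of -0.277 over the 17579 genes, a description since genes do not stand for replicates. With that offset, Spry4, Mafg, Atf7 and Mkl2 were not called (adjusted p = 0.0576, 0.0845, 0.171 and 0.122).

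Of 20 AP-1 target genes tested, 2 were called higher, Ccl2 and Spp1, and 1 was called lower. Ccl2, a monocyte chemokine, was at 39.3 to 53.8 CPM in CD5L KO and 23.5 to 32.8 CPM in WT kidneys, higher by 0.67 on the log2 scale (adjusted p = 0.00566 in edgeR). Spp1, which encodes osteopontin, was higher by 0.51 on the log2 scale. The 3 calls were 15% of the list, where 10.5% of all genes tested were called. With single kidneys left out there were 3 to 5, the highest without CD5L KO replicate 3, and 1015 to 2062 over all genes. Of 14 heat shock response genes, Hspb1 (0.35), Hspe1 (0.32) and Hsp90aa1 (0.29) were called higher and the heat shock factor gene Hsf1 (-0.26) lower, 28.6% of that list. With single kidneys left out, 1 to 4 of the 14 were called, the fewest without CD5L KO replicate 3 or 4 or WT replicate 2. With 1 kidney left out, Hspb1 kept its call only where that was WT replicate 1 or 3 (adjusted p = 0.0559 to 0.118 in edgeR in the other 7 fits), and had a log2 fold change of 0.21 (adjusted p = 0.216) with the gene length offset. Hsp90aa1 lost its call without CD5L KO replicate 3 or 4 or WT replicate 1, 2 or 4, and Hsf1 without CD5L KO replicate 1, 3 or 4 or WT replicate 2 or 5. Hspe1, Ccl2 and Spp1 were called in all 9 fits, but Hspe1 lost its call with the gene length offset (log2 fold change 0.21, adjusted p = 0.0588), as did Hsf1 (adjusted p = 0.0855), and Spp1 on FPKM with limma (adjusted p = 0.205 and 0.263 at pseudocounts of 1 and 0.1). With all 19 kidneys in 1 fit, 0 genes of either list were called, where 12 of 18454 genes were. In the other 4 comparisons, 0 genes of these 6 lists were called by edgeR.

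**Figure D3:**
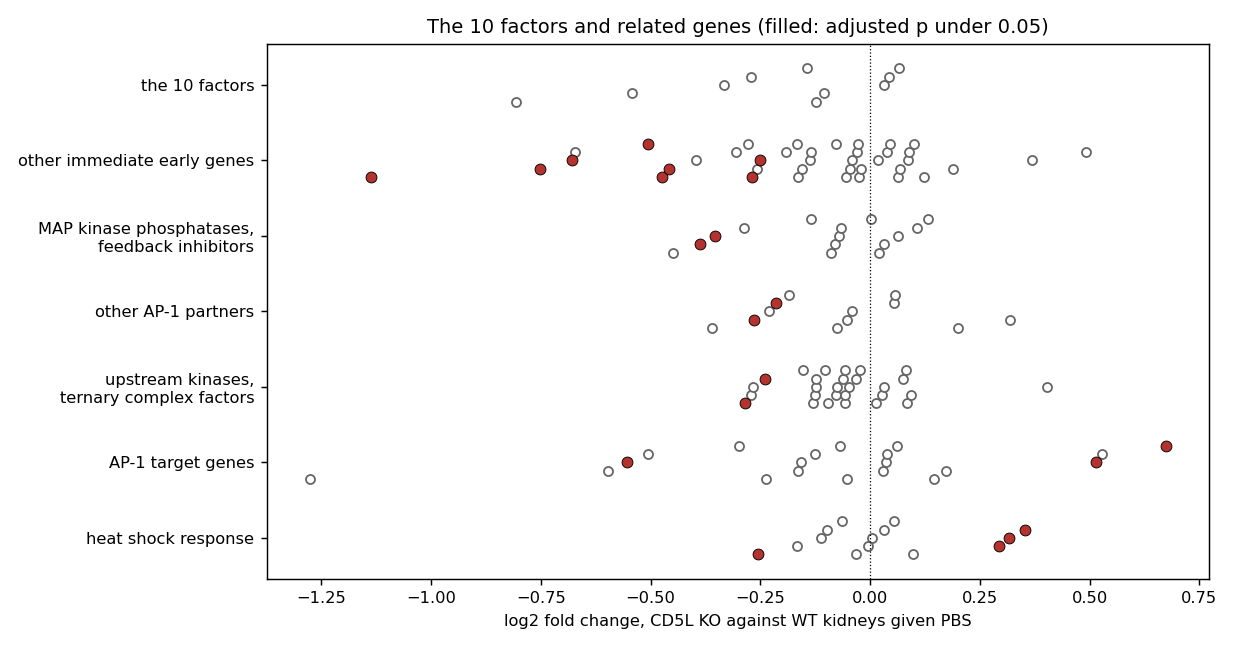
log2 fold changes (x axis) of CD5L KO against WT kidneys with PBS for the 10 factors and 6 lists of related genes (y axis, points spread vertically for view), with filled points for an adjusted p-value under 0.05. The 8 filled points among other immediate early genes all lie below 0, and the 10 factors have none.

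Cell type markers moved in this comparison too. Of 6 endothelial markers, 4 were called lower in CD5L KO kidneys (Tie1, Cdh5, Pecam1 and Flt1), and the list summed to 479 to 530.5 CPM in CD5L KO and 578 to 667 CPM in WT kidneys given PBS. Of 8 fibroblast and myofibroblast markers, 5 were called lower (Col3a1, Acta2, Col1a1, Col1a2 and Pdgfrb), with sums of 2997 to 4135 and 4224 to 6482 CPM. These calls are 66.7% and 62.5% of the lists, where 949 of 17579 genes were called lower. With single kidneys left out, 3 to 4 endothelial and 3 to 5 fibroblast markers were called, the latter being 3 without CD5L KO replicate 1, 3 or 4 or WT replicate 4. With all 19 kidneys in 1 fit, 0 markers of either list were called, where 12 of 18454 genes were. Urothelium markers went the other way without passing the test: each of 8 had a log2 fold change above 0, with a median of 0.77, and 0 were called (2 without WT replicate 3). Their sum was 441 to 625 CPM in CD5L KO and 141 to 412 CPM in WT kidneys given PBS, without overlap. The other 9 marker lists had 0 to 2 calls each. No marker of the endothelial, fibroblast or urothelium lists was at 0 in a whole group. Over the 19 kidneys, after subtraction of group means, the level of Fosl2 and the summed fibroblast markers had r = 0.786 and rho = 0.64 (permutation p = 0.00664 and 0.0184, adjusted p = 0.471 and 0.988 over 120 pairs of a member and a marker list). Without CD5L KO kidneys 3 and 4 given rCD5L, which were the 2 farthest from the median of the marker sum, r was 0.42, so the relation rests on them. For Fosl2 with the injured tubule markers, r fell likewise from 0.738 (permutation p = 0.0118, adjusted p = 0.471) to 0.244, with rho = 0.368 (permutation p = 0.142, adjusted p = 0.988). Of the 120 pairs, 7 had an unadjusted permutation p under 0.05 for r and 0 passed after adjustment. Some of them fell less without these kidneys. Atf3 with the epididymis markers had r = 0.602 (permutation p = 0.0115, adjusted p = 0.471) and 0.508 without them. Fosl2 with the neutrophil markers had 0.653 and 0.477, and Ier3 with the urothelium markers -0.543 and -0.453 (adjusted permutation p = 0.766 for both pairs). The part of these lists in the difference between genotypes in Fosl2, Ctgf, Nr4a1 and Nr4a3 was not tested, and in whole kidneys fewer cells of a type cannot be told apart from less RNA per cell.

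With rCD5L given to both genotypes, CD5L KO against WT, edgeR called 0 of the 10 members, where 0% of all 17360 genes tested were called. DESeq2 also called 0 members, and 64 genes in all. At an unadjusted p-value under 0.05 there were 2 members, Egr1 and Fos, against 17.8% of all genes. No member had groups without overlap, against 7.52% of all genes. Endothelial markers summed to 484 to 506 CPM in CD5L KO and 537 to 586 CPM in WT kidneys, without overlap. Each of 10 proximal tubule markers was higher (median log2 fold change 1.59, with kidney 4 summing to 16960 CPM), as were 0 of 8 fibroblast markers. In these 3 lists 0 markers were called. Their part in the members' differences was not tested.

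Egr1 was at 102, 126, 144, 152 and 159 CPM in WT kidneys given rCD5L and at 65.1, 95.04, 99.6, 105 and 112 CPM in CD5L KO kidneys given rCD5L. The 3 lowest CD5L KO kidneys lay below all WT kidneys, and the lowest WT kidney lay below the other 2. The log2 fold change was -0.54 (SE 0.165, 95% interval -0.90 to -0.18, unadjusted p = 0.00707 and adjusted p = 0.259 in edgeR). Without CD5L KO kidneys 3 and 4, it was -0.38 with an adjusted p-value of 0.0853, while 644 genes in all were then called.

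Fos was at 14.9, 33.4, 34.8, 40.0 and 46.1 CPM in WT and at 10.8, 15.6, 18.004, 20.1 and 32.95 CPM in CD5L KO kidneys given rCD5L. The lowest WT kidney lay among the CD5L KO kidneys, and 1 CD5L KO kidney reached just below the upper 4 WT kidneys. Here the log2 fold change was -0.81 (SE 0.323, 95% interval -1.52 to -0.10, adjusted p = 0.259 in edgeR), and -0.52 (adjusted p = 0.309) without kidneys 3 and 4.

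In CD5L KO kidneys given rCD5L, kidney 3 was the highest of the group for Fosl1 (15.2 CPM), Fosl2 (154), Junb (294), Jund (211) and Atf3 (47.6). Kidney 4 was the lowest for Fosl2 (78.2 CPM), Jun (176), Junb (136), Jund (79.1) and Egr1 (65.1). The order was the reverse for Fos, in which kidney 3 was the lowest (10.8 CPM), and for Ier3, in which kidney 4 was the highest (66.6 CPM). These are the libraries that also stood apart in their scaling factors. Fibroblast and myofibroblast markers summed to 6336 CPM in kidney 3 and 1523 CPM in kidney 4, and to 2873 to 4818 CPM in the other 3. The part of this difference in the members' values was not tested. With both kidneys left out, Fosl1 differed from WT by 0.14 on the log2 scale in place of 0.59, Jund by -0.01 in place of 0.14 and Atf3 by 0.02 in place of 0.23.

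The effect of rCD5L was asked within each genotype. In WT mice, edgeR called 0 of 10 members, where 0% of 17455 genes were called, and DESeq2 called 0 members and 508 genes in all. Ier3 was the 1 member with an unadjusted p-value under 0.05 (0.022, edgeR), against 16.0% of all genes. No member had groups without overlap, against 3.60% of all genes. Ier3 was at 59.0, 62.1, 67.2, 68.2 and 72.2 CPM with PBS and at 55.4, 56.7, 59.5, 60.1 and 61.9 CPM with rCD5L. The 2 lowest treated kidneys lay below all PBS kidneys, and 4 PBS kidneys lay above all treated ones. Its log2 fold change was -0.15 (SE 0.0596, 95% interval -0.28 to -0.03, adjusted p = 0.227 in edgeR).

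Fosb and Fos had the larger differences in WT mice, with wide intervals. Fosb was at 2.29, 3.42, 4.35, 4.37 and 5.16 CPM with rCD5L, a log2 fold change from PBS of -0.72 (SE 0.341, 95% interval -1.46 to 0.01, adjusted p = 0.318 in edgeR). Leaving out PBS replicate 3 gave -0.31, and leaving out PBS replicate 5 gave -0.92. For Fos, the change was -0.63 (SE 0.349, adjusted p = 0.395 in edgeR), and between -0.82 and -0.23 with single kidneys left out. Jund was at 65.3 to 120.4 CPM with PBS and 96.6 to 131 CPM with rCD5L, a log2 fold change of 0.28 (SE 0.144, adjusted p = 0.359 in edgeR). Fosl2, Jun and Junb had log2 fold changes of -0.004, -0.02 and -0.002, with intervals inside -0.24 to 0.24. Those of Egr1 (-0.15), Fosl1 (-0.15) and Atf3 (-0.07) also had intervals across 0.

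In CD5L KO mice, edgeR called 0 of 10 members after rCD5L, where 0% of 17467 genes were called, and DESeq2 called 0 members and 3 genes in all. Fos was the 1 member with an unadjusted p-value under 0.05 (0.0463, edgeR), against 2.87% of all genes. Again no member had groups without overlap, where 2.35% of all genes did. Epididymis markers summed to 17.6 to 46.5 CPM with rCD5L and 6.59 to 16.45 CPM with PBS, without overlap, and 0 were called. In WT mice these sums were 11.6 to 30.0 and 8.49 to 19.45 CPM. The part of these markers in the members' values was not tested. The values of Fos, given above for each group, put 3 of 5 treated kidneys below all 4 PBS kidneys. The log2 fold change was -0.90 (SE 0.398, 95% interval -1.78 to -0.02, adjusted p = 0.897 in edgeR), and -0.61 (adjusted p = 0.642) without kidneys 3 and 4. Among the rest, intervals were wide for Fosl1 (-0.33 to 1.42), Jund (-0.19 to 0.95) and Egr1 (-0.83 to 0.11). They were narrower for Jun (-0.29 to 0.41) and Ier3 (-0.33 to 0.20). Atf3, at 19.6 to 47.6 CPM against 19.9 to 29.5 CPM with PBS, had a log2 fold change of 0.30 (SE 0.223), which was 0.10 without kidneys 3 and 4.

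Whether rCD5L acted differently in the 2 genotypes was asked with an interaction term over the 4 groups. None of the 10 members was called (edgeR), where 0% of 18454 genes were, and DESeq2 called 0 members and 0 genes in all. No member had an unadjusted p-value under 0.05, against 6.25% of all genes. The lowest unadjusted p-values were 0.121 for Atf3 and 0.127 for Fosl1 (edgeR). The interval for Fos ran from -1.49 to 0.98 on the log2 scale, so that neither a large difference nor the lack of one was shown at this spread.

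The spread between kidneys of the same group differed widely among the 10 genes. The SD of log2 CPM within groups, pooled over the 4 groups, was 0.727 for Fos, at the 91.7th percentile of all genes, 0.579 for Fosb and 0.497 for Fosl1. It was 0.189 for Jun and 0.130 for Ier3, the latter at the 10.8th percentile, while the median gene had 0.277. Egr1, Jund, Junb, Atf3 and Fosl2 lay between, at 0.363, 0.362, 0.301, 0.277 and 0.237. Fos spanned 3.05-fold to 4.42-fold within a group and Ier3 1.12-fold to 1.44-fold. For 7 of the 10 genes, the group with the widest SD was CD5L KO with rCD5L, Fos (CD5L KO with PBS), Fosb and Egr1 (both WT with PBS) being the others. For Fosl1 this widest SD was 0.757, with kidney 3 at 15.2 CPM and the next kidney at 6.44 CPM. The pooled SD of Fosl1 was not taken without kidney 3, so its place in this order may rest on that kidney.

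**Figure D4:**
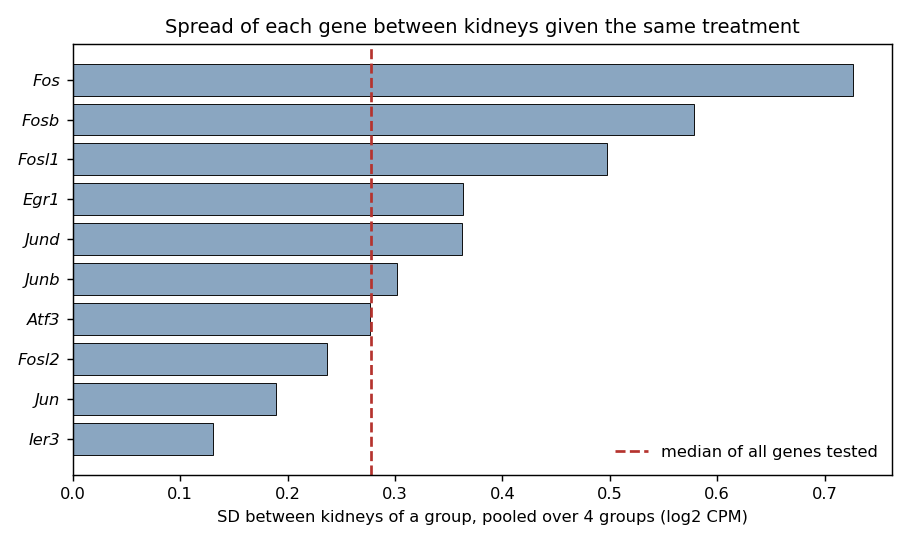
SD of log2 CPM between kidneys of a group, pooled over 4 groups (x axis, bars), for the 10 genes (y axis), with the median of all genes tested as a dashed line at 0.277. Fos, Fosb and Fosl1 are the 3 widest and Ier3 is the narrowest.

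Genes that varied between kidneys varied together in part. After subtraction of the group means of log2 CPM, 40 of 45 pairs of members had a positive Pearson's r over the 19 kidneys, with a median of 0.44. Of the 45 pairs, 6 passed an adjusted p-value of 0.05 for r (permutation test within groups, two-sided, adjusted over 45 pairs) and 3 passed for both r and Spearman's rho. Fos and Egr1 were 1 of these 3, with r = 0.862 and rho = 0.886 (adjusted permutation p = 0.0045 and 0.0054). Without the 2 kidneys farthest from the median of Fos, r was 0.814, and without the CD5L KO kidneys given rCD5L it was 0.947. WT kidney 3 given PBS was the highest of the 19 for both genes.

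Junb and Jund had r = 0.862 and rho = 0.809 (adjusted permutation p = 0.0045 and 0.00788), and Junb and Egr1 had r = 0.772 and rho = 0.711 (adjusted permutation p = 0.0045 and 0.0428). Without CD5L KO kidneys 3 and 4 given rCD5L, these values of r were 0.788 and 0.831. Jun with Junb (r = 0.81), Jun with Egr1 (0.708) and Fos with Fosb (0.689) passed for r, with adjusted permutation p-values of 0.0045, 0.0182 and 0.0409. They did not pass for rho, with r falling to 0.736, 0.557 and 0.537 without the 2 kidneys farthest from the median.

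No relation passed between Fos and Fosl1, Fosl2 or Atf3: r was -0.161 with Fosl1 and -0.186 with Fosl2, and -0.06 with Atf3 (adjusted permutation p = 0.603, 0.567 and 0.84). Fosl1 and Fosl2 had r = 0.618 (adjusted permutation p = 0.149), which was 0.425 without the 2 kidneys farthest from the median of Fosl1. All genes of a kidney share its library, so these are correlations between measures of the same tissue piece.

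**Figure D5:**
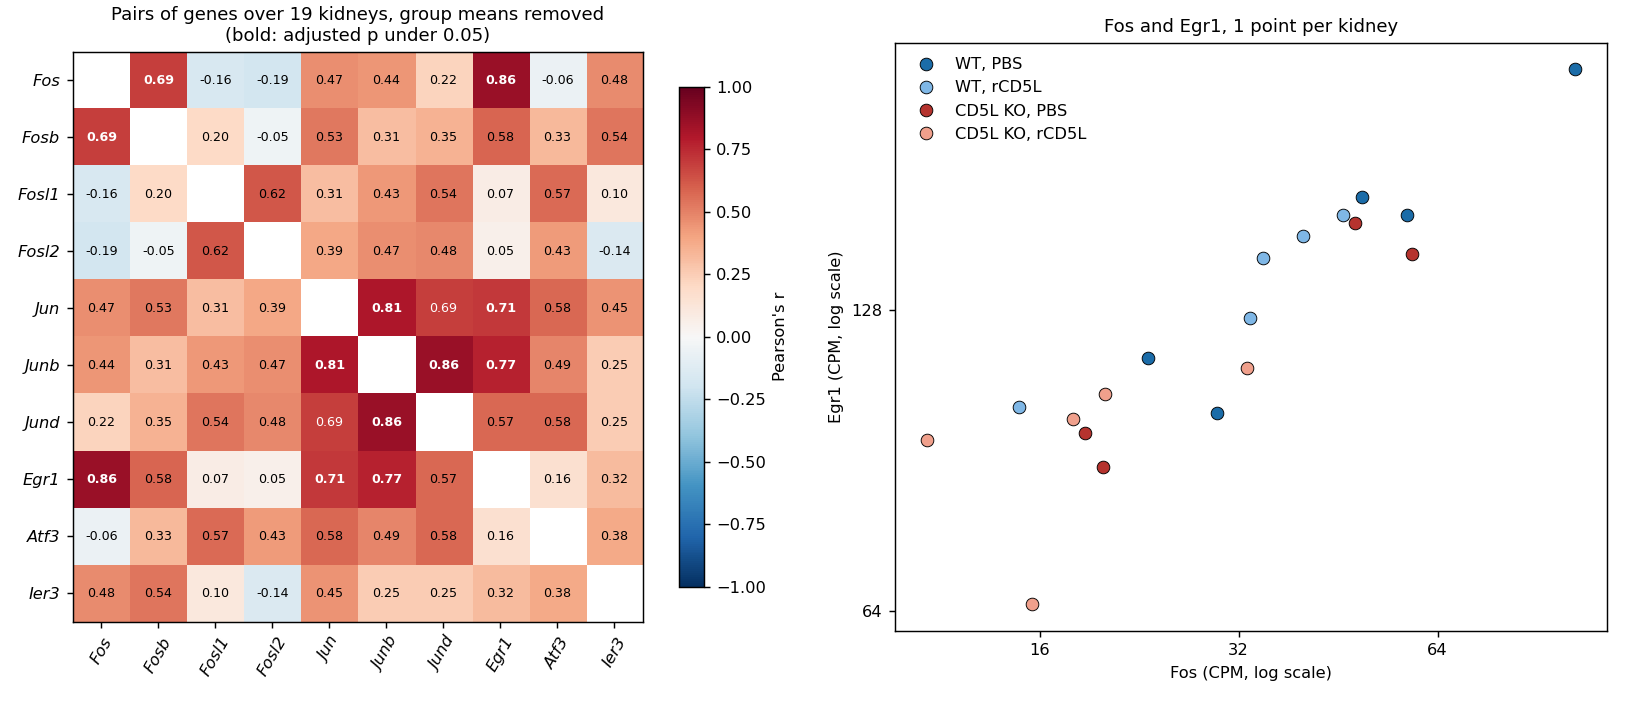
Left: Pearson's r (colour and number) for each pair of the 10 genes over 19 kidneys after removal of group means, with bold type for an adjusted p-value under 0.05. Right: Fos (x axis) against Egr1 (y axis) in CPM on log scales, 1 point per kidney coloured by group. Kidneys low in Fos tend to be low in Egr1, though the kidney lowest in Fos is not always its group's lowest in Egr1.

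The genes most like 3 of the members were found among the 18453 other genes tested, by r of log2 CPM less the group mean over the 19 kidneys. For Fos they were Nr4a1 (r = 0.863), Egr1 (0.862) and Gm48529 (0.83). Without the CD5L KO kidneys given rCD5L, these were 0.846, 0.947 and 0.843. Jun was most like Cited2 (0.839), Hes1 (0.819) and Junb (0.81). Atf3 was most like Tnfrsf12a (0.936), the receptor of the cytokine TWEAK, Mogs (0.88) and Tmem254c (0.867), and without the CD5L KO kidneys given rCD5L these were 0.84, 0.749 and 0.738.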

How the data were processed

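Whole obstructed kidneys of 19 mice were grouped by the genotype, treatment and replicate number in the sample labels. The counts that the authors deposited, without normalization, were made by featureCounts from HISAT2 alignments to GRCm38 of paired 150-base reads, which Trimmomatic had trimmed. Libraries had been primed with random hexamers from RNA with a RIN of at least 7. Versions, the strand setting and the treatment of reads that match several places are not given in the sources used here. The FPKM values that the authors deposited equalled the counts divided by gene length and by a library total 1.20 to 1.29 times as large as the one TMM gave. Depth was 17917491 to 23847090 counts per kidney, and counting errors cover counting only, since no molecular identifiers were used. Replicates are labelled as biological.

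The test was glmQLFTest after glmQLFit, of edgeR 4.0.16 under R 4.3.3, on genes kept by filterByExpr (minimum count 10) with TMM scaling. Only the compared groups entered a fit, and all 4 entered the interaction. Alternatives were 1 fit of 19 kidneys, RLE factors, DESeq2 1.42.0, at least 10 counts in every sample, no filter, the replicate number as a block, limma 3.58.1 on log2(FPKM + 1) and log2(FPKM + 0.1), a gene length offset (lowess, span 0.3), leaving out each kidney and leaving out both outlying ones. The tests were tested on simulated data with known changes. Correlations used 100000 permutations within groups in Python 3.11.15.

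The members and the lists of related genes and markers were chosen with earlier results of these data known. Up to 3 called rises and falls with the largest fold change are named per list and comparison, and for Fos, Jun and Atf3 the 3 genes with the highest r. Genes of the endothelial and fibroblast lists were named after their values were seen. The marker lists covered proximal tubule, injured tubule, thick ascending limb, distal tubule and collecting duct, podocyte, endothelium, fibroblast and myofibroblast, macrophage, neutrophil, lymphocyte, urothelium and epididymis. Columns of the tables without a sample numbered 0. GENCODE M21 and RefSeq tables of GRCm38 gave overlapping genes and promoter windows. The gene of the AP-1 target list that was called lower is counted but not reported here.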

Additional observations from a re-analysis of the deposited data

Results flagged for a closer look

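Of 40 groups tested (10 genes in 4 groups of 4 or 5 kidneys), 2 held a kidney far from the others by Dixon's criterion, and 2.0 are expected by chance at this level. Both were of Fosl1. In CD5L KO kidneys given PBS, replicate 1 had 2.93 CPM, the lowest, and the next kidney had 5.32 CPM. In CD5L KO kidneys given rCD5L, replicate 3 had 15.2 CPM, the highest, and the next kidney had 6.44 CPM. Replicate 3 is 1 of the 2 kidneys whose scaling factors stood apart.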

How the results depend on the processing

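The number of members called in CD5L KO against WT kidneys given PBS was 1 in place of 0 in DESeq2 (Fosl2), with the replicate block (Fos, log2 fold change -0.76, adjusted p = 0.0261), with the gene length offset (Ier3) and without WT replicate 3 (Fosl2), a range of 0 to 1 with single kidneys left out. The cause was not tested. In the other comparisons and the interaction it was 0 in each alternative run. The deviations of same-numbered kidneys from their group means had r of -0.187 to 0.174 over 27 pairs, 5 of them over 0.1. Differently numbered kidneys were not compared, so these values cannot settle whether a number marks a shared batch. The block raised the count over all genes from 1850 to 2132.

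Over all genes, CD5L KO against WT with PBS gave 12 calls with all 19 kidneys in 1 fit, 2571 in DESeq2, and 1015 to 2062 without single kidneys. With rCD5L it gave 64 in DESeq2, 1291 with all 19 in 1 fit, 644 without CD5L KO kidneys 3 and 4, and 0 to 1 without single kidneys. For rCD5L in WT mice there were 508 calls in DESeq2, 137 with no filter and 0 to 39 without single kidneys, and for rCD5L in CD5L KO mice 3 in DESeq2. Without the CD5L KO kidneys given rCD5L, 15 pairs of members passed in place of 6.

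No member whose fold change turned in sign was called. For CD5L KO against WT with PBS, Jund turned to -0.010 with the replicate block and -0.047 with the length offset. For rCD5L in CD5L KO mice, Jun turned to -0.0090 with the block. For rCD5L in WT mice, Fosl2 turned to 0.00030 and 0.00051 with FPKM (pseudocounts 1 and 0.1), and Junb to 0.018 with the block, 0.021 and 0.022 with FPKM at these pseudocounts and 0.034 with the length offset. Without CD5L KO kidneys 3 and 4, Jund turned to -0.011 against WT with rCD5L, and the interactions of Fos and Jund to 0.020 and -0.052. The interaction of Jund was -0.014 and -0.016 with FPKM at pseudocounts of 1 and 0.1.

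Leaving out single kidneys turned the sign of further log2 fold changes. With PBS, CD5L KO against WT ranged from -0.22 to 0.071 for Fosl1, -0.027 to 0.12 for Jun, -0.084 to 0.15 for Junb and -0.057 to 0.16 for Jund. With rCD5L it ranged from -0.22 to 0.032 for Junb, -0.12 to 0.27 for Jund and -0.080 to 0.040 for Ier3. rCD5L in CD5L KO mice ranged from -0.25 to 0.10 for Fosb, -0.025 to 0.21 for Fosl2 and -0.11 to 0.0056 for Ier3. In WT mice it ranged from -0.27 to 0.011 for Fosl1, -0.071 to 0.054 for Fosl2, -0.077 to 0.072 for Jun, -0.095 to 0.088 for Junb and -0.27 to 0.024 for Egr1. The interaction ranged from -0.65 to 0.074 for Fos, -0.0036 to 0.21 for Fosl2 and -0.15 to 0.23 for Jund. At the low counts of Fosb and Fosl1, depth adds to the error of each value.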
